A study of Mus musculus with 6 samples.

Results

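Genes of the motile cilium and of the multiciliated ependymal lining of the brain ventricles were followed in the embryonic mouse cortex. The set was a list of 48 genes, chosen by symbol for their known roles in building or moving motile cilia and for their link to hydrocephalus. By symbol, 43 of the 48 were found among the 59484 gene features of the table. Of these, 41 had a mean of at least 10 normalized counts over the libraries and entered the tests, among 18970 features tested in all. *Armc4* and *Spag17* were found but lay under that mean. *Deup1* and *Cfap65* were listed under their older names, *Ccdc67* and *Ccdc108*, and are described beside the members without being counted among them. *Cfap43* shared 1 feature with its neighbour *Itprip*. *Dnah3* and *Dnah12* were not analysed here.

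PolyA+ RNA was sequenced from the cortex of 3 wild-type (WT) embryos and 3 *Sam68:Slm2* double knockout (dKO) embryos, all at embryonic day 18.5. Sam68 and SLM2 are RNA-binding splicing regulators encoded by *Khdrbs1* and *Khdrbs3*. The dKO embryos came from crosses between *Sam68* heterozygous, *Slm2* null mice. Such crosses give no wild-type littermates, so litter and genotype cannot be told apart. Each sample was taken to be the cortex of a separate embryo, which the sample labels do not state. The sources used here do not say how much of the ventricular wall or choroid plexus was dissected with the cortex. The libraries held between 31837922 and 40896541 reads on the listed features. *Khdrbs1* had 8231, 8436 and 7974 normalized counts in WT and 114, 197 and 146 in dKO cortex, and *Khdrbs3* kept 48.1% of its WT level, and for both genes all dKO libraries lay below all WT libraries.

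Multiciliated cells carry many beating cilia on one surface. In the brain they form the ependyma, which lines the ventricles and arises from radial glia, and the choroid plexus epithelium, which makes cerebrospinal fluid. Entry into this fate runs through the geminin relatives *Gmnc* and *Mcidas*, which switch on genes for the amplification of centrioles, and through *Foxj1* and the RFX factors, which switch on genes of the axoneme, the microtubule skeleton of the cilium. Axonemal dynein arms drive the beat, the nexin-dynein regulatory complex and the radial spokes regulate it, and the central pair sits in the middle of the axoneme. Loss of many of these genes causes ciliary dyskinesia and, in mice, hydrocephalus.

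RFX factors bind a sequence that is conserved in the promoters of many ciliary genes, so the promoters of the listed genes were searched for it. RefSeq (build GRCm38.p6) gave a window from 250 bases before to 50 bases after the start for 38 of the 48 listed genes, *Deup1*, *Cfap43* and *Dnah12* among them. The paired RFX form, which reads GTNNCC, any 2 bases and GGNNAC, was searched on both strands. It occurred in 7 of these 38 genes, or 18.4%, against 2.16% of the 27025 genes in the promoter table. They were *Ccno*, *Deup1*, *Rfx2*, *Rsph9*, *Spag6l*, *Tekt4* and *Zmynd10*. Parts of the windows of 3 of them, a regulator of centriole amplification, a scaffold of the deuterosome and a protein of the axonemal microtubules, are shown. They run 5′ to 3′ on the strand of the gene and hold the paired form with up to 40 bases on each side. Capitals mark the paired form.
*Ccno*, chr13:112987552-112987636, plus strand: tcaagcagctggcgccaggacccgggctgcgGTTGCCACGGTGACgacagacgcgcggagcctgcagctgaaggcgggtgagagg
*Deup1*, chr9:15627880-15627973, minus strand: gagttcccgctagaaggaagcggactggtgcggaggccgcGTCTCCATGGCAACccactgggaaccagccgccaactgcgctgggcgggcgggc
*Tekt4*, chr17:25471390-25471483, plus strand: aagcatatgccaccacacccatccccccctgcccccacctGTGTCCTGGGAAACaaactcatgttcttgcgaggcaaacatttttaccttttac

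The paired form read GTCTCCATGGAGAC in *Rsph9*, GTTTCCATGGCGAC in *Zmynd10*, GTTGCCCTGGAGAC in *Spag6l* and GTAGCCGTGGAGAC in *Rfx2*. The shorter RFX core GTTGCC, which overlaps the paired form in *Ccno*, *Deup1* and *Spag6l*, was found in 19 of the 38 windows (50%), against 14.1% of all genes. The forkhead letters GTAAACA, of the type that FOXJ1 binds, were found in 3 (*Myb*, *Cfap43* and *Ak7*, 7.89%), against 4.05% of all genes. A match describes the letters in the window and was not tested as a binding site. *Foxj1*, *Dnah3*, *Dnaaf1*, *Armc4*, *Lrrc6*, *Rsph1*, *Rsph4a*, *Cfap54*, *Cfap65* and *Nme5* had no window in the table.

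To ask whether the ciliary genes differed between the genotypes, each gene was compared as log2(normalized count + 1) with limma over all 18970 features, with Benjamini-Hochberg adjustment over all of them. The fold change is a difference of mean logs, so for low genes with uneven libraries it can differ from the ratio of the means in either direction. None of the 41 members passed an adjusted *P*-value of 0.05 (0 lower and 0 higher in dKO cortex, smallest adjusted p = 0.318 with limma), where 0.0474% of all features did in the lower and 0.0527% in the higher direction. edgeR and DESeq2 on the recovered reads also called 0 members. edgeR called 0.0474% of all features lower and 0.0527% higher, and DESeq2 called 0.749% lower and 0.327% higher. The log2 fold change was negative for 33 members and positive for 8 (50.6% of all features were positive), with a median of -0.59 over the members and of 0.00 over all features tested. Thus 80.5% of the members had a lower mean log2 value in dKO cortex, against 49.4% of all features.

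At an unadjusted *P*-value under 0.05, limma gave 9 members lower in dKO cortex and 0 higher, which is 22% of the members against 6.58% of all features in the lower and 4.92% in the higher direction. Both directions together held 11.5% of all features. The libraries of the genotypes did not overlap for 9 members, all of them lower in dKO cortex. This was 22% of the members, where 8.48% of all features did so in that direction, 7.89% in the other and 16.4% in either. Among the 25 members with a mean from 10 to under 100 normalized counts, 21 had a negative and 4 a positive log2 fold change, with a median of -0.73. All features in that range of levels leaned the same way, with a median of -0.17 and 63.0% of them lower, 8.35% with an unadjusted *P*-value under 0.05 and 11.2% without overlap. The members held 7 and 6 such genes among the 25. Among the 16 members with a mean of at least 100, 12 were lower and 4 higher, with a median log2 fold change of -0.21 against 0.03 for all features at that level, of which 43.2% were lower. There, 2 members (*Dnah9* and *Spag6l*) had an unadjusted *P*-value under 0.05 and 3 (these and *Dnah2*) did not overlap, against 5.78% and 7.25% of all features. Of the 41 members, 6 reached the mean of 10 through the WT libraries alone and 0 through the dKO libraries alone. These 6 were *Gmnc*, *Dnah6*, *Dnah11*, *Dnaic1*, *Tekt4* and *Ak7*. Such members had to differ, so the counts and medians describe the members that passed and are not evidence about the list.

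**Figure D1:**
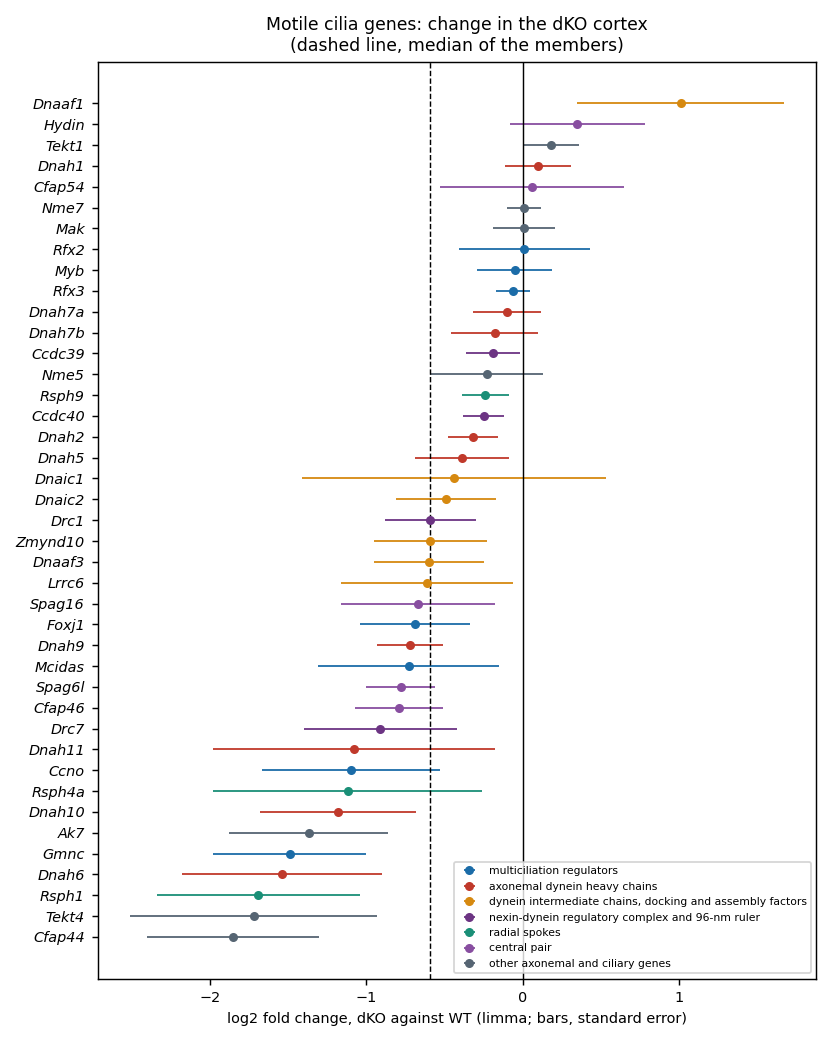
Log2 fold change (dKO against WT, limma, x axis) of the 41 members tested, with bars for the standard error and colours for the role of the gene product. The solid line marks no change and the dashed line the median of the members. The points run from -1.85 (*Cfap44*) to 1.01 (*Dnaaf1*), and 33 of 41 lie to the left of the solid line.

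Of the regulators of the multiciliated fate, *Gmnc* and *Mcidas* were the lowest and *Rfx3* was the highest by count. Of the 7 tested, 6 had a negative log2 fold change and 1 a positive one, with a median of -0.69, and 0 passed the adjusted test. *Gmnc* encodes GEMC1, which acts at the top of the programme. It had 24.7, 15 and 24.5 normalized counts in the WT and 5.45, 8.37 and 6.96 in the dKO libraries. All 3 dKO libraries lay below all 3 WT libraries, with between 6 and 8 reads in each against 14 to 28. *Gmnc* passed the filter through WT alone, so its values are a description. The log2 fold change from limma was -1.49 with a standard error of 0.49 (adjusted p = 0.348), and the exact permutation test gave 0.1, the smallest *P*-value that 3 against 3 allows.

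*Mcidas* and *Ccno* lie next to each other on chromosome 13 (112993845 to 113000394 and 112987802 to 112990778). *Mcidas* encodes multicilin, a partner of E2F factors, and had 26.6, 9.67 and 32.4 normalized counts in WT and 10.9, 22 and 6.96 in dKO cortex. *Ccno*, which is needed for the amplification of centrioles, had 64.7, 21.5 and 63.1 in WT and 12.7, 46 and 13.9 in dKO cortex. In both genes the second WT library was the lowest of its genotype and the second dKO library the highest of its genotype, so that the genotypes overlapped. Their log2 fold changes were -0.73 (standard error 0.58, adjusted p = 0.645 from limma) and -1.10 (standard error 0.57, adjusted p = 0.486).

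*Foxj1* (chromosome 11 from 116330703 to 116336390, minus strand), the forkhead factor that switches on genes of the axoneme, showed the same order of libraries. It had 296, 155 and 332 normalized counts in WT and 152, 235 and 99.7 in dKO cortex. The means were 261 ± 93.8 and 162 ± 68.4 (SD, n = 3 embryos each), or 62.2% of the WT level. The log2 fold change of -0.69 (standard error 0.35) did not pass the test (adjusted p = 0.486 from limma, 0.2 from the exact permutation test).

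The other regulators were nearer to no change. *Rfx3*, the most abundant of them, had 1069, 1070 and 865 normalized counts in WT and 941, 945 and 991 in dKO cortex (log2 fold change -0.06, standard error 0.11). *Rfx2* had 23.8, 40.8 and 71 in WT and 53.5, 46 and 29 in dKO cortex (log2 fold change 0.01, standard error 0.42), and its sign changed between tools. *Myb*, which also acts in dividing progenitors, had 117, 77.3 and 111 in WT and 90.8, 119 and 84.7 in dKO cortex (log2 fold change -0.05, standard error 0.24). The genotypes overlapped in all 3 genes. *Ccdc67*, the older name of *Deup1*, whose product builds the deuterosomes on which centrioles are multiplied, had 71.3, 17.2 and 77.1 in WT and 13.6, 25.1 and 13.9 in dKO cortex. From limma its log2 fold change was -1.39 with a standard error of 0.55 (adjusted p = 0.394), and the second WT library lay within the range of the dKO libraries.

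**Figure D2:**
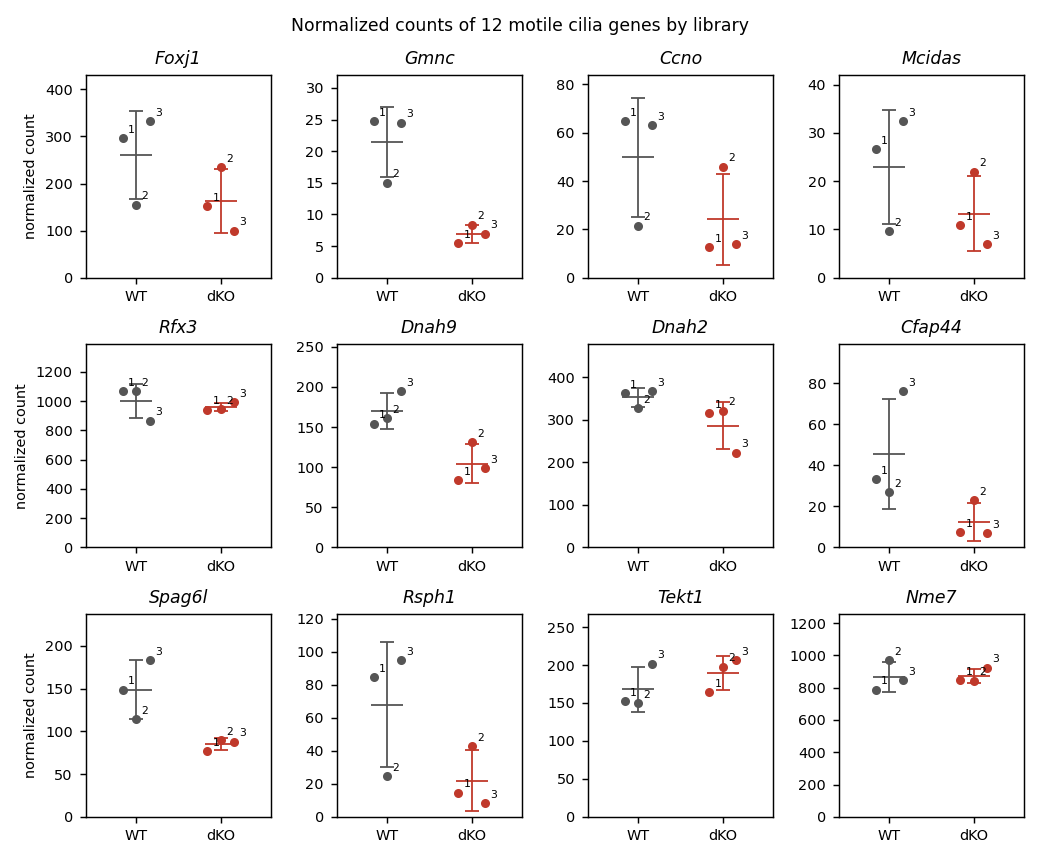
Normalized counts (y axis, starting at 0) of 12 members in each library, with WT in grey and dKO in red. The digit beside a point is the replicate number, the long bar the mean and the short bars 1 SD (n = 3 embryos). In *Foxj1*, *Ccno* and *Mcidas* the second WT and the second dKO library cross, whereas in *Gmnc*, *Dnah9*, *Dnah2*, *Cfap44* and *Spag6l* all dKO points lie below all WT points.

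Axonemal dynein heavy chains, the motors of the inner and outer arms, were mostly lower in dKO cortex. Of the 9 tested, 8 had a negative log2 fold change and 1 a positive one, with a median of -0.39 and 0 past the adjusted test. *Dnah9*, an outer arm heavy chain, had 154, 161 and 195 normalized counts in WT and 83.5, 131 and 98.6 in dKO cortex. All dKO libraries lay below all WT libraries, at 61.4% of the WT mean (log2 fold change -0.72, standard error 0.21, adjusted p = 0.323 from limma). *Dnah10*, an inner arm heavy chain, had 26.6, 32.2 and 16.7 in WT and 5.45, 13.6 and 13.9 in dKO cortex, again without overlap (log2 fold change -1.18, standard error 0.50, adjusted p = 0.412 from limma).

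*Dnah2*, an inner arm heavy chain and the most abundant of the dyneins by count, had 362, 328 and 368 in WT and 315, 321 and 223 in dKO cortex. The genotypes did not overlap, but the highest dKO and the lowest WT value were close (log2 fold change -0.32, standard error 0.16, adjusted p = 0.485 from limma). *Dnah6* had 47.6, 8.59 and 52.6 in WT and 10.9, 8.37 and 8.12 in dKO cortex. *Dnah6* also passed the filter through WT alone, and only its first and the third WT library stood above the dKO libraries (log2 fold change -1.54, standard error 0.64, adjusted p = 0.402 from limma). *Dnah1* had 129, 153 and 188 in WT and 141, 211 and 153 in dKO cortex, a log2 fold change of 0.10 (standard error 0.21) whose sign changed when single libraries were left out.

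*Dnah5* and *Dnah11*, further outer arm heavy chains, had log2 fold changes of -0.39 and -1.08 with overlapping libraries. *Dnah7a* and *Dnah7b* had -0.10 and -0.18. These genes and *Dnah7c* are close copies, and the counting could split reads between them, so their sum was examined as well. It was 229, 212 and 181 in WT and 158, 208 and 184 in dKO cortex, which overlapped (207 ± 24.6 against 183 ± 25.1, SD, n = 3, exact permutation p = 0.4). *Dnah5* and *Lrrc6* lie on the chromosome of *Khdrbs3*, at 40.5 and 2.43 Mb from it, and *Dnaic1* lies 88.1 Mb from *Khdrbs1*. For these members a linked difference between the strains carrying the knockouts and the wild-type cannot be told apart from the genotype.

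Among the intermediate chains, docking and assembly factors of the dynein arms, 5 of the 6 tested had a negative log2 fold change, 1 had a positive one, and the median was -0.54. *Dnaaf1*, which assembles dynein arms in the cytoplasm, had the most positive value of all members, with 9.51, 17.2 and 3.51 normalized counts in WT and 10.9, 38.7 and 13.9 in dKO cortex. The libraries overlapped, the WT values rested on 4 to 16 reads, and the log2 fold change of 1.01 (standard error 0.66) did not pass the test (adjusted p = 0.575 from limma). *Dnaaf3*, named here after its values were seen, had 50.4, 32.2 and 38.6 in WT and 19.1, 31.4 and 29 in dKO cortex. Its genotypes did not overlap (log2 fold change -0.60, standard error 0.35, adjusted p = 0.523 from limma). *Dnaic1*, *Dnaic2*, *Zmynd10* and *Lrrc6* had log2 fold changes between -0.61 and -0.44 and overlapped. *Armc4*, a docking factor, had 8 reads in the third WT library and 0 in the other 5.

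The nexin-dynein regulatory complex and the CCDC39 and CCDC40 ruler, which sets the repeat length of the axoneme, had 4 of 4 members with a negative log2 fold change, with a median of -0.42. *Drc1*, a core subunit of the complex, had 273, 146 and 291 normalized counts in WT and 136, 207 and 119 in dKO cortex (log2 fold change -0.59, standard error 0.29, adjusted p = 0.467 from limma). Its libraries followed the order seen for *Foxj1*, with the second WT library among the dKO libraries. *Ccdc40* had 516, 526 and 592 in WT and 434, 534 and 416 in dKO cortex (log2 fold change -0.25, standard error 0.13). *Ccdc39* had 249, 223 and 221 in WT and 230, 216 and 166 in dKO cortex (log2 fold change -0.19, standard error 0.17). Both genes overlapped between the genotypes.

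All 3 radial spoke genes had a negative log2 fold change, with a median of -1.12. *Rsph1*, a spoke head protein, had 84.6, 24.7 and 94.7 normalized counts in WT and 14.5, 42.9 and 8.12 in dKO cortex, which is 32.1% of the WT mean (log2 fold change -1.69, standard error 0.65, adjusted p = 0.393 from limma). *Rsph4a*, another spoke head protein, named here after its values were seen, had 74.2, 11.8 and 93.8 in WT and 9.08, 58.6 and 13.9 in dKO cortex (log2 fold change -1.12, standard error 0.86, adjusted p = 0.637 from limma). *Rsph9* had 713, 562 and 763 in WT and 490, 662 and 575 in dKO cortex (log2 fold change -0.24, standard error 0.15). In each of the 3 genes the second WT library was the lowest WT value and lay below the second dKO library, which was the highest dKO value.

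Of the 5 central pair genes tested, 3 had a negative and 2 a positive log2 fold change. *Spag6l*, whose copy *Spag6* may share reads with it, had 149, 114 and 183 normalized counts in WT and 77.1, 89.9 and 88.1 in dKO cortex, the smallest adjusted *P*-value among the members. All dKO libraries lay below all WT libraries, at 57.2% of the WT mean (log2 fold change -0.78, standard error 0.22, adjusted p = 0.318 from limma). *Cfap46*, a component of the projections of the central pair, had 66.6, 61.2 and 78.9 in WT and 39.9, 48.1 and 31.3 in dKO cortex, likewise without overlap (log2 fold change -0.79, standard error 0.28, adjusted p = 0.366 from limma).

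*Hydin*, whose loss gives the *hy3* model of hydrocephalus, had 30.4, 18.3 and 45.6 normalized counts in WT and 45.4, 51.2 and 23.2 in dKO cortex (log2 fold change 0.35, standard error 0.43, adjusted p = 0.767 from limma). *Cfap54* had 65.6, 17.2 and 85 in WT and 48.1, 81.6 and 27.8 in dKO cortex (log2 fold change 0.06, standard error 0.59), and its sign changed between tools. In both genes the means of the genotypes differed by less than 1 SD. *Spag16* had a log2 fold change of -0.67 with overlapping libraries. *Spag17*, which was not tested, had 20, 8.59 and 10.5 in WT and 8.17, 12.5 and 0 in dKO cortex.

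The other axonemal and ciliary genes held both the lowest fold change of the members and several genes near 0. *Cfap44*, an axonemal protein that links the inner dynein arms to the microtubules, had 33.3, 26.9 and 76.3 normalized counts in WT and 7.26, 23 and 6.96 in dKO cortex, which is 27.3% of the WT mean. The genotypes did not overlap (log2 fold change -1.85, standard error 0.55, adjusted p = 0.325 from limma). *Ak7*, an adenylate kinase of motile cilia, had 39.9, 15 and 27.2 in WT and 12.7, 10.5 and 5.8 in dKO cortex (log2 fold change -1.37, standard error 0.51, adjusted p = 0.385 from limma). *Tekt4*, a tektin, had 32.3, 6.44 and 33.3 in WT and 3.63, 14.6 and 2.32 in dKO cortex (log2 fold change -1.72, standard error 0.79, adjusted p = 0.44 from limma), and its second WT library lay below the second dKO library. *Ak7*, whose genotypes did not overlap, and *Tekt4* passed the filter through WT alone, so their values are a description.

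By contrast, *Tekt1*, another tektin, had 152, 150 and 202 normalized counts in WT and 164, 198 and 206 in dKO cortex (log2 fold change 0.18, standard error 0.18, adjusted p = 0.722 from limma). *Nme7*, which the study lists among genes with altered splicing, had 789, 969 and 846 in WT and 848, 844 and 923 in dKO cortex (log2 fold change 0.01, standard error 0.11). Its exons were not counted separately. *Mak* and *Nme5* had log2 fold changes of 0.01 and -0.23, and all 4 of these genes overlapped between the genotypes. The feature that joins *Cfap43* to *Itprip* had 383, 443 and 444 in WT and 407, 445 and 449 in dKO cortex (exact permutation p = 0.5), and the share of *Cfap43* in it is not known. *Ccdc108*, the older name of *Cfap65*, had 14.3, 0 and 31.6 in WT and 0, 3.14 and 0 in dKO cortex and was under the mean of 10.

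**Figure D3:**
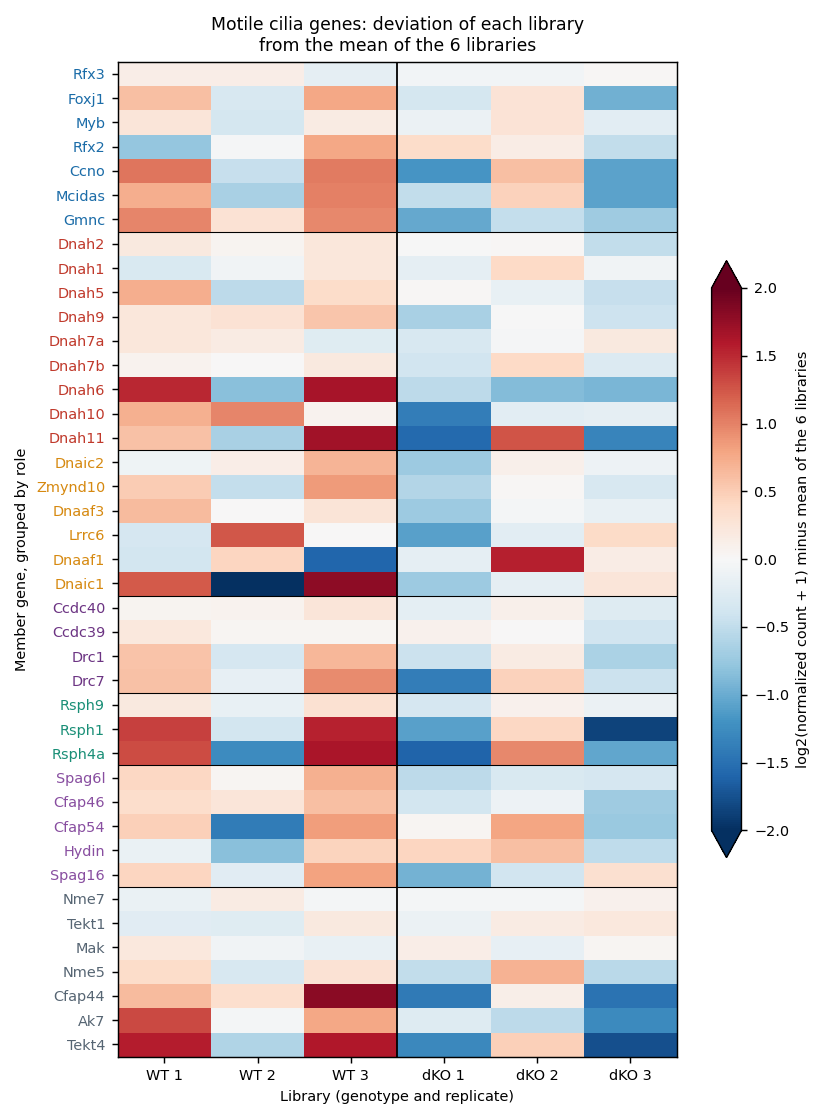
Deviation of each library (columns) from the mean of the 6 libraries on the log2(normalized count + 1) scale for the 41 members tested (rows, grouped by role and coloured as in the plot of fold changes), red above and blue below the mean, with colours saturating at the ends of the scale. The columns of the first and the third WT libraries are mostly red and those of the first and the third dKO libraries mostly blue, and the second WT and second dKO libraries are closer to the mean.

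Across the members the libraries of a genotype were not alike. The third WT library held the highest value for 22 of the 41 members (53.7%, against 19.3% of all features), and the first dKO library held the lowest for 16 (39%, against 16.3%). The median deviation of the members from the mean of the 6 libraries was 0.42, -0.07 and 0.60 on the log2 scale in the WT and -0.43, 0.10 and -0.41 in the dKO libraries. The second WT library lay below, and the second dKO library above, that mean. The second WT library was the lowest of its genotype for 28 members (68.3%, against 33.3% of all features), and the second dKO library was the highest of its genotype for 27 (65.9%, against 32.1%). Both held at once for 22 members (53.7%, against 13.7%). At a mean from 10 to under 100, all features leaned the same way. There the third WT library was highest for 60% of the 25 members, against 27.1% of all features at that level. The first dKO library was lowest for 48%, against 21.1%. The joint order of the second libraries held for 64%, against 18%. This order was noticed in the data and is given as a description.

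The counts over the members depended on these libraries. Without the second WT library, 18 members (42.9%) had an unadjusted limma *P*-value under 0.05 in the lower direction, against 8.5% of all features in the same fit. Without the second dKO library 15 members (37.5%) did, against 7.45%. Without the first or the third WT library the count was 4 (9.76% against 4.32%) and 5 (12.5% against 3.93%). Without the first or the third dKO library it was 6 (14.3% against 5.71%) and 5 (11.9% against 4.12%). The median log2 fold change ran from -0.75 without the second WT library to -0.31 without the third. No member passed an adjusted *P*-value of 0.05 in any of these fits.

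Since a motile cilium needs many more genes, 62 other motile cilia genes, taken from general knowledge of the axoneme, were found by symbol as well. Of the 52 tested, 43 had a negative and 9 a positive log2 fold change, with a median of -0.46, and 0 passed the adjusted test with limma or edgeR. The genotypes did not overlap for 7 lower genes (13.5%, against 8.48% of all features) and for 2 higher genes, where 7.89% of all features did so. The unadjusted *P*-value was under 0.05 for 10, all lower, which is 19.2% against 6.58% of all features. Among these 10, *Cfap206*, *Spef2* and *Efcab1* reached the mean of 10 through WT alone and had to differ. The counts and the median are therefore a description and not evidence about the list. *Cfap206*, which had 59, 17.2 and 50.8 normalized counts in WT and 4.54, 12.5 and 6.96 in dKO cortex, had an adjusted p = 0.268 from limma and was the 1 gene of this list called by DESeq2 (adjusted p = 0.0218), where DESeq2 called 0.749% of all features lower. Its genotypes did not overlap, but it was 1 of the 6 genes of the 52 that reached the mean of 10 through WT alone, so it had to differ.

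The most abundant genes of this second list were near no change. *Gas8*, a subunit of the nexin-dynein regulatory complex, had 1755, 1939 and 1839 in WT and 1990, 1881 and 1965 in dKO cortex. *Rsph3a*, a radial spoke gene, had 982, 1048 and 1053 in WT and 1069, 1005 and 956 in dKO cortex. *Spef1* and *Rsph3b* had log2 fold changes of -0.07 and -0.12. The order of libraries was like that of the members, with the second WT library lowest of its genotype and the second dKO library highest in 25 of the 52 genes (48.1%, against 13.7% of all features).

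Genes of the primary, non-motile cilium, which nearly every cell of the cortex carries, did not lean to a side. Nor did a list of genes of centriole amplification and the cell cycle. Of 47 genes of the primary cilium and of intraflagellar transport, 24 had a negative and 23 a positive log2 fold change, with a median of -0.01. *Kifap3*, a subunit of the kinesin that carries intraflagellar transport and the most abundant of them, had 12493, 9715 and 10164 normalized counts in WT and 12169, 9985 and 10449 in dKO cortex. Of 16 genes of centriole amplification and the cell cycle in multiciliated cells, 7 were negative and 9 positive, with a median of 0.02. This list does not hold *Ccno* and *Deup1*, whose log2 fold changes of -1.10 and -1.39 did not pass the adjusted test. With limma, 0 genes of either list passed an adjusted *P*-value of 0.05, and the unadjusted *P*-value was below 0.05 for 3 and 0 of them. The 3 (*Ift27*, *Bbs1* and *Tctn1*, all lower) were 6.38% of the 47 genes, near the 6.58% of all features.

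In bulk tissue, fewer cells of a type and less RNA per cell cannot be told apart, so markers of the cell types that a cortex sample can hold were set beside the members. Ependymal markers listed apart from the members were low, except for *Cd24a*. Whether all of them lie outside the cilium was not examined. *Tmem212* was at 0 in all libraries and *Ccdc153* in 4 of the 6 libraries, so the ependymal label rests on few defining markers at this age. Of the 6 tested, 5 had a negative log2 fold change. Among these 5, *Hdc* passed the filter through WT alone and had to differ, so the count is a description. *Aqp4*, a water channel shared by ependyma and astrocytes, had 126, 31.1 and 101 normalized counts in WT and 20, 63.8 and 39.4 in dKO cortex. As in *Foxj1*, its second WT library was the lowest and its second dKO library the highest of its genotype. *Cd24a* had between 85920 and 100876 in every library and is also made by young neurons. Without it, the summed markers were 250, 96.7 and 289 in WT and 69, 169 and 104 in dKO cortex.

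Choroid plexus epithelium, which is also multiciliated, was near absent by its defining markers *Ttr* and *Folr1*, while other markers were higher. *Ttr*, the most abundant choroid plexus transcript, had 1.9, 2.15 and 14 normalized counts in WT and 9.08, 10.5 and 2.32 in dKO cortex, and *Folr1* had at most 4.3. Of 20 markers found, 10 were tested, of which 6 had a negative and 4 a positive log2 fold change, with a median of -0.41 that became 0.12 without the third WT library. Of the 10, *Clic6* and *Msx1*, both negative, reached the mean of 10 through WT alone. *Sostdc1*, the most abundant marker after *Enpp2*, had 107, 66.6 and 103 in WT and 50.8, 101 and 34.8 in dKO cortex (log2 fold change -0.67, standard error 0.37, adjusted p = 0.512 from limma). Its second WT library was the lowest and its second dKO library the highest of its genotype, as in 3 of the 10 markers (30%, against 13.7% of all features). *Enpp2*, which cells of the oligodendrocyte lineage make as well, had 653, 386 and 501 in WT and 340, 390 and 238 in dKO cortex (log2 fold change -0.67, standard error 0.22, adjusted p = 0.357 from limma). *Enpp2* was the 1 marker of the 10 tested with an unadjusted limma *P*-value under 0.05 (10%, against 6.58% of all features in the lower direction). It is not a neutral marker here. Under the name lysoPLD/ATX, the paper counts it among known SLM2 splicing targets, although its exon was unchanged in dKO cortex at this age. *Khdrbs3* also shares chromosome 15 with it (starts at 68928418 and 54838901). Whether linkage or splicing had a part in its lower counts was not tested. The summed markers were 910, 581 and 938 in WT and 544, 727 and 449 in dKO cortex, and without *Enpp2* they were 257, 195 and 437 in WT and 203, 337 and 211 in dKO cortex. The part of choroid plexus tissue in the ciliary values was not tested.

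**Figure D4:**
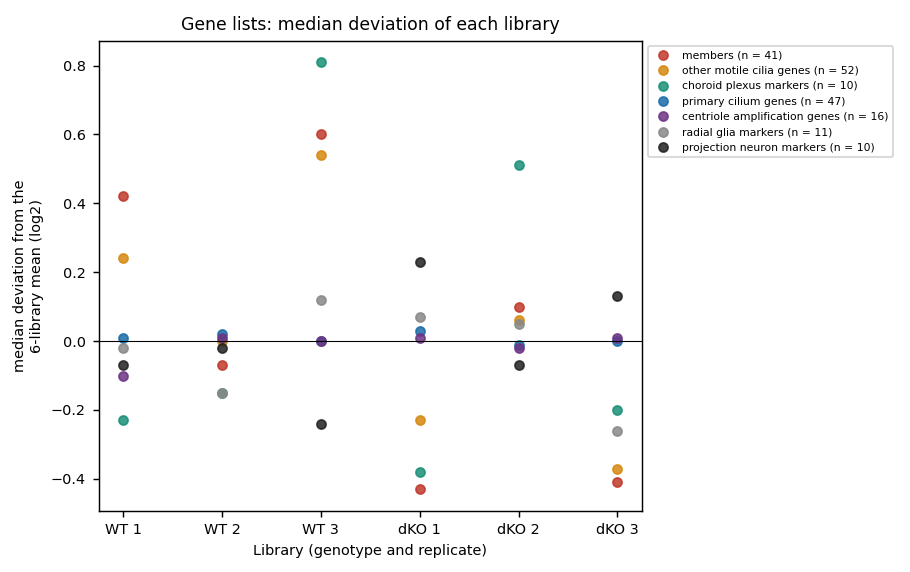
Median deviation of each gene list from the mean of the 6 libraries (y axis, log2 scale) in each library (x axis), 1 point per list and library, with the number of genes tested in the key. The members and the other motile cilia genes are above 0 in the first and the third WT libraries and below 0 in the first and the third dKO libraries, the choroid plexus markers peak in the third WT and the second dKO libraries, and the primary cilium genes stay near 0.

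Radial glia are the cells from which ependyma arises. In 5 of their 11 markers (45.5%, against 13.7% of all features) the second WT library was lowest and the second dKO library highest of its genotype. The markers described next, *Hes5* and *Slc1a3*, had the most negative log2 fold changes of the 11. *Hes5*, a Notch target in progenitors, had 1052, 664 and 1383 normalized counts in WT and 722, 813 and 572 in dKO cortex, and *Slc1a3*, a glutamate transporter of radial glia and astrocytes, had 4872, 3294 and 5483 in WT and 3356, 4158 and 2810 in dKO cortex. Over the 11 radial glia markers, 6 had a negative and 5 a positive log2 fold change, with a median of -0.06, and the most abundant, *Fabp7*, *Vim* and *Nes*, overlapped between the genotypes. Of the 10 markers of projection neurons, 2 were negative and 8 positive, with a median of 0.22. An unadjusted limma *P*-value under 0.05 was reached by 5 of these (*Bcl11b*, *Fezf2*, *Cux1*, *Neurod2* and *Tubb3*) and by 2 radial glia markers (*Pax6* and *Vim*), all higher in dKO cortex, where 4.92% of all features did. None of the radial glia or projection neuron markers passed an adjusted *P*-value of 0.05 with limma. The part of the cell composition of each cortex in the ciliary values was not tested.

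Levels of the members were compared with each other per kilobase of exon, with lengths from GENCODE M21. In WT cortex *Rsph9* had the highest level, at 424 ± 65.4 normalized counts per kilobase (SD, n = 3), followed by *Nme7* at 148 ± 15.6, *Tekt1* at 104 ± 17.9 and *Foxj1* at 99.5 ± 35.8. The median of the 43 members found was 12 normalized counts per kilobase, and the lowest were *Dnah11* at 0.948 ± 0.744 and *Armc4* at 0.569 ± 0.985. Of the 42 pairs of neighbours in this order, 3 differed by more than the sum of their SDs, which were *Rsph9* and *Nme7*, *Nme7* and *Tekt1*, and *Ccdc39* and *Dnah2*. Of the 5 members at the top of this order, which are these 4 and *Rfx3*, the log2 fold changes ran from -0.69 for *Foxj1* to 0.18 for *Tekt1*.

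**Figure D5:**
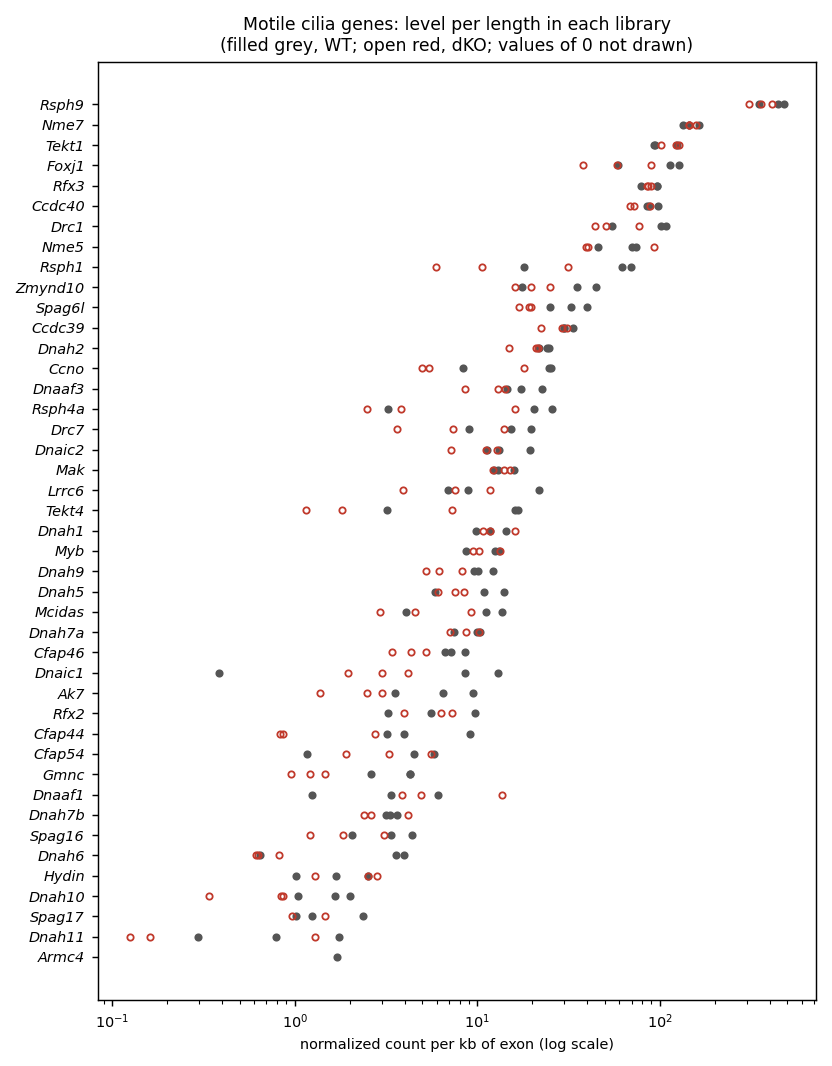
Normalized count per kilobase of exon (x axis, log scale) of the 43 members found, ordered by their WT mean, with filled grey points for the WT and open red points for the dKO libraries (values of 0 are not drawn). The levels span from 0.569 for *Armc4* to 424 for *Rsph9* in the WT mean, and the points of most genes overlap between the genotypes.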

How the data were processed

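Cortices of 3 WT and 3 dKO embryos were grouped by their labelled genotype. The authors used the company GenoSplice and its FAST database for the analysis and deposited 1 signal per gene and library, which is the read count scaled by the library's size factor. The submitters' processing notes name STAR 2.7.5a, FastQC, Picard, SAMtools, DESeq2 and mm10. The counting program and its strand setting are not given in the sources used here.

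All positive values (100%, tolerance 0.01 reads) were whole multiples of the value of 1 read (0.877 to 1.16 normalized counts), so reads were recovered for the count tests. Features without a symbol held 8.48% to 9.62% of the reads and were kept.

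Values were transformed to log2(normalized count + 1) and fitted by genotype with limma 3.58.1 in R 4.3.3 (lmFit and eBayes, trend and robust), keeping features whose mean was 10 or more, with Benjamini-Hochberg adjustment and a threshold of 0.05. The fit was tested on simulated data. Single genes were also compared by exact two-sided permutation tests, whose smallest value is 0.1. Alternatives were edgeR 4.0.16 and DESeq2 1.42.0 on the recovered reads, pseudocounts of 0.1 and 10, no filter and means of at least 1 and 50, quantile normalization, TMM rescaling, limma without the trend and robust options, the replicate block and each library left out. Counting the older gene names was added after seeing the data.

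Members and lists were chosen with earlier results of these data known. Values were given for all regulators, the 8 other members with the highest mean, those with the 6 most positive and the 6 most negative fold changes, those with an unadjusted *P*-value under 0.05 and a member that the paper names. From each other list, up to 4 genes of the highest mean and any called gene were named, and other genes there were picked after their values were seen. Python 3.11.15 was used for the rest.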

Additional observations from a re-analysis of the deposited data

How the results depend on the processing

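No member passed an adjusted *P*-value of 0.05 under any alternative (smallest adjusted p = 0.0933). Their median log2 fold change of -0.59 stayed negative in every fit and was -0.23 at a mean of at least 50, where 22 members were tested and 17 were lower. That filter gave 3 members with an unadjusted *P*-value under 0.05 (13.6%, against 6.25% of all features). It gave 4 without overlap (18.2%, against 7.92%). The main fit gave 9 and 9. Leaving out single libraries, the first count ran from 4 to 18 (3.93% to 8.5% of all features) and the second from 10 to 23 (11.6% to 17.4% of all features, since fewer libraries overlap less often). Members higher without overlap ran from 0 to 1, where 7.89% of all features were so in the main fit. The median ran from -0.75 to -0.31. Counting the older gene names gave 10 unadjusted calls and the same median. With the longest transcript as length, the median level was 12.4 per kilobase, against 12. The depth limits the lower members, since many rest on fewer than 50 reads in a library. The cause of these shifts was not tested.

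For the other motile cilia genes, DESeq2 called 1 gene. A mean of at least 50 gave 3 lower unadjusted calls and 3 lower genes without overlap, against 10 and 7. Of all features, 6.25% and 7.92% did so under that filter. The median there was -0.09, against -0.46. Quantile normalization gave 4 lower genes without overlap (7.14% of all features). With libraries left out, lower unadjusted calls ran from 4 to 18 (3.93% to 8.5% of all features). Lower genes without overlap ran from 8 to 26 (11.6% to 17.4% of all features, since fewer libraries overlap less often). For the choroid plexus markers, the median of -0.41 was 0.12 without the third WT library and as low as -0.78 without another. Unadjusted lower calls (1) were 2 with no filter (5.45% of all features) and 0 to 2 with libraries left out (3.93% to 8.5% of all features). Unadjusted higher calls (0) were 1 with no filter, with quantile normalization and with the replicate block, and 0 to 1 with libraries left out. In the main fit 4.92% of all features were called in that direction. Markers without overlap ran from 0 to 3 lower and 0 to 1 higher, where 8.48% and 7.89% of all features did so in the main fit.

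Samples that share a replicate number did not deviate together (correlations of 0.098, -0.228 and -0.079), so the numbers were not taken as pairs. The replicate block gave 7 members with an unadjusted *P*-value under 0.05 (17.1%, against 5.79% of all features), where the main fit gave 9. It gave 0 past the adjusted test.

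Of the 27 members named by rule, 22 kept the sign of their fold change in every fit. *Rfx2* turned negative with a pseudocount of 10 (-0.00), edgeR (-0.08), DESeq2 (-0.08) and without the first WT, the first dKO or the second dKO library (-0.37, -0.16 and -0.06), in a range up to 0.40. *Cfap54* was -0.10 with edgeR and with DESeq2 and -0.63 and -0.32 without the second WT and dKO library, in a range up to 0.49. *Myb* was 0.07 with quantile normalization and -0.23 to 0.06 with single libraries left out. *Nme7* was -0.00 with quantile normalization and -0.06 to 0.09 with single libraries left out. *Dnah1* was -0.03 and -0.08 without the first WT or the second dKO library, in a range up to 0.24.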

Other observations

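Several axonemal dyneins are better known from sperm flagella than from the brain, and their levels were read beside germ cell markers. *Dnah8* had 106, 96.7 and 103 normalized counts in WT and 124, 89.9 and 88.1 in dKO cortex, which overlapped. *Dnah17* had 20.9, 18.3 and 24.5 in WT and 17.2, 6.27 and 12.8 in dKO cortex. Its genotypes did not overlap, and its log2 fold change of -0.85 (standard error 0.48) did not pass the test (adjusted p = 0.514 from limma). Of 7 male germ cell markers found, *Prm1*, *Prm2*, *Tnp1* and *Acrv1* were at 0 in all 6 libraries, and the 2 that were tested had log2 fold changes of 0.07 (*Ddx4*) and -0.04 (*Dazl*). The dyneins and these markers were picked after their values were seen.

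*Dyx1c1*, a dynein assembly factor outside the listed members, had 53.3, 47.3 and 45.6 normalized counts in WT and 27.2, 17.8 and 18.6 in dKO cortex (log2 fold change -1.19, standard error 0.32, adjusted p = 0.291 from limma). All dKO libraries lay below all WT libraries, and the second WT library did not stand apart in it. *Mns1*, a protein of the inner axonemal microtubules, and *Dnaaf5*, an assembly factor, belong to the same list of other motile cilia genes. In these 2 of the 52 tested, all dKO libraries lay above all WT libraries, where 7.89% of all features did so. The log2 fold changes of *Mns1* and *Dnaaf5* were 0.23 (standard error 0.14) and 0.26 (standard error 0.16). Their adjusted *P*-values from limma were 0.533 and 0.541. These genes were chosen after their values were seen.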
